A study of Ovis aries with 10 samples.

Results

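The transforming growth factor beta (TGF-beta) signalling core of the sheep fetal adrenal gland was described here through its 3 ligands, 2 receptors and 5 SMAD proteins, a list of 10 genes. They were looked up by gene symbol in the authors' deposited table of differential expression, which has 19316 rows, and 8 of the 10 were found. These were the ligands TGFB1, TGFB2 and TGFB3, the receptors TGFBR1 and TGFBR2, and the signal carriers SMAD2, SMAD4 and SMAD6. SMAD3 and SMAD7 were not found under those symbols and were not analysed here. Of the rows, 5435 carry a transcript ID in place of a symbol, so either gene may be among them.

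The series sequenced RNA from adrenal glands of sheep fetuses at 102 days of gestation, with 5 libraries labelled as injected with endotoxin and 5 control libraries labelled as injected with saline. Endotoxin is lipopolysaccharide from the outer membrane of Gram-negative bacteria, and the series title describes the model as inflammation within the uterus of fetuses at the edge of viability. Each group held 3 female and 2 male libraries. Titles of the control libraries carry the letters WT and those of the endotoxin libraries LPS, without explanation. The labels name no breed, and they give neither the dose and site of injection nor the time from injection to sampling. They also do not say whether each library came from a separate fetus and ewe, so p-values measure the spread between these libraries.

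TGF-beta ligands are secreted in a latent complex and act only once released from it. An active ligand binds TGFBR2, which recruits and phosphorylates TGFBR1. TGFBR1 in turn phosphorylates SMAD2 and SMAD3, and these enter the nucleus with SMAD4 to regulate transcription. SMAD6 and SMAD7 are inhibitory members of the family, SMAD7 at the TGF-beta receptors and SMAD6 mainly in the related bone morphogenetic protein (BMP) branch. In cultured bovine and ovine adrenocortical cells TGF-beta is known to lower steroid output.

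Library totals lay between 12494386 and 18324516 estimated counts. The authors' deposited table gives 1 mean per group in TPM, a level scaled by transcript length and library total, and a standard error from the authors' model, but no value per library. The tables with values per library carry gene IDs without symbols, all of which begin with ENSBTAG, the Ensembl prefix of cattle genes. Against a reference of sheep genes 0 of these 20781 IDs could be matched, and no reference of cattle genes was used. The overlap of the groups was therefore not described for any gene named below. Why cattle IDs appear beside the sheep build Oar_v3.1 was not examined. The groups of the authors' deposited table are headed A and B, which were read as control and endotoxin. With the labelled TPM values, 16 genes were at least 8-fold higher and 3 at least 8-fold lower with endotoxin, while 19 rows of the authors' deposited table were at least 8-fold higher and 3 lower in B. If this reading were wrong, every direction below would turn. Adrenal tissue was recognisable in both groups, with the cortical electron carrier FDX1 at means of 580 and 1835 TPM and the chromaffin granule protein CHGA at 4096 and 3648 TPM, control first, per the authors' deposited table.

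Of the 8 measured members 1 fell with endotoxin, none rose and 7 did not pass an adjusted p of 0.05 per the authors' deposited table. The gene that fell was TGFB2. For comparison, 0.426% of the 19236 rows with a p were called lower, 1.29% higher and 1.72% in either direction per the authors' deposited table. With 8 members, a single call is too few to set their share apart from that background. At an unadjusted p under 0.05 there were 3 members, against 12.9% of all rows with a p. TGFB1 and SMAD6 were the higher ones, against 7.58% of rows, and TGFB2 the lower one, against 5.35% of rows. The median log2 fold change of the 8 members was -0.12 per the authors' deposited table, beside 0.01 over all rows with a p.

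**Figure D1:**
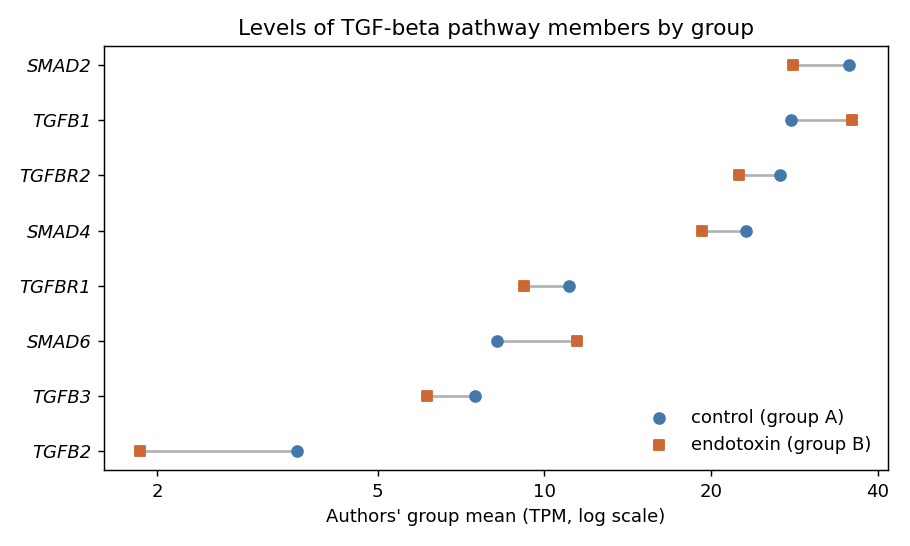
Group mean of each of the 8 measured members in TPM on a log scale, with controls as circles and endotoxin as squares joined by a grey line; no spread is drawn because the source gives 1 mean per group. TGFB2 has the lowest level in both groups and the longest line, from 3.57 to 1.86 TPM, while TGFB1 and SMAD6 are the members with the higher mean in the endotoxin group.

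The 3 ligands did not share a direction. TGFB2, a ligand isoform needed for the development of several organs in the mouse, went from a control mean of 3.57 TPM to an endotoxin mean of 1.86 TPM per the authors' deposited table. On the scale of the authors' model it fell by 0.82 on the log2 scale, with a standard error of 0.22 and an adjusted p of 0.016 per the authors' deposited table. The 95% interval of that log2 fold change ran from -1.24 to -0.40, so the endotoxin level was estimated at 0.567 of the control level, with limits of 0.423 and 0.76. TGFB2 ranked 182 of 19236 rows by p per the authors' deposited table. It was also the member with the lowest level, with a mean over both groups above that of 36.5% of all rows.

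TGFB1, the isoform produced by many cell types including blood and immune cells, had the opposite sign. Its mean was 27.9 TPM in controls and 36.0 TPM with endotoxin per the authors' deposited table. The log2 fold change was 0.50 ± 0.16 (SE), with a 95% interval of 0.19 to 0.82 and an adjusted p of 0.073, so it missed the threshold per the authors' deposited table. To pass at that standard error the log2 fold change would have had to reach 0.54. TGFB3, a ligand known for its part in palate fusion, was at 7.49 and 6.15 TPM, control first, per the authors' deposited table. Its log2 fold change of -0.17 ± 0.23 (SE) had a 95% interval of -0.62 to 0.28 and an adjusted p of 0.886 per the authors' deposited table.

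As a description of levels with no test, the 3 ligands together amounted to 38.9 TPM in controls and 44.0 TPM with endotoxin per the authors' deposited table. From those means, TGFB1 made up 71.6% of this sum in controls and 81.8% with endotoxin. The share of TGFB2 was 9.18% and 4.23%, and that of TGFB3 19.2% and 14.0%. The ratio of TGFB1 to TGFB2 means was accordingly 7.80 in controls and 19.3 with endotoxin. These sums and shares are on the TPM scale. There the log2 ratio of mean TPM plus 1 was 0.36 for TGFB1, against 0.50 on the scale of the authors' model. Whether the changes of TGFB1 and TGFB2 differ from each other was not tested, since that needs values per library.

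**Figure D2:**
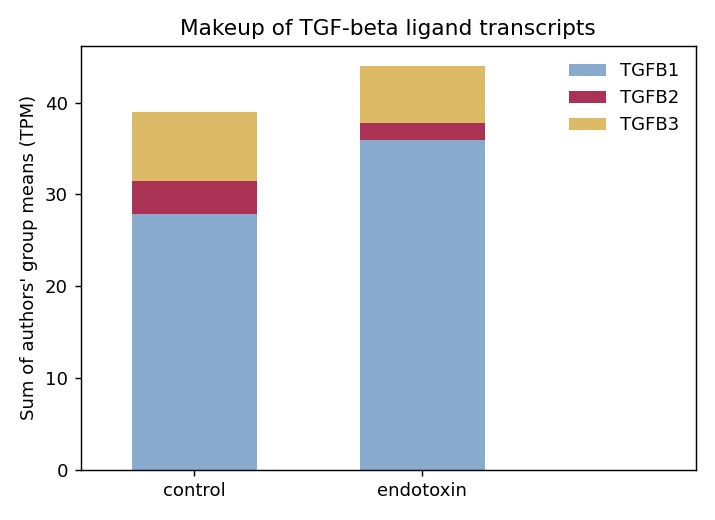
Stacked bars of the group means of the ligands TGFB1, TGFB2 and TGFB3 in TPM, summing to 38.9 in controls and 44.0 with endotoxin; no error is drawn because the source gives 1 mean per group. TGFB1 is the largest part of both bars, and the TGFB2 part is 3.57 TPM in controls and 1.86 TPM with endotoxin.

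Neither receptor passed the threshold. TGFBR2, the type II receptor that binds the ligand first, was at 26.6 TPM in controls and 22.4 TPM with endotoxin per the authors' deposited table. The log2 fold change of TGFBR2 was -0.11 ± 0.17 (SE), with a 95% interval of -0.44 to 0.21 and an adjusted p of 0.903 per the authors' deposited table. TGFBR1, the type I receptor kinase that phosphorylates SMAD2 and SMAD3, was at 11.1 and 9.18 TPM, control first, per the authors' deposited table. It was at -0.12 ± 0.24 (SE), with a 95% interval of -0.58 to 0.34 and an adjusted p of 0.94 per the authors' deposited table. From the authors' deposited means, TGFBR2 was at 2.40 times TGFBR1 in controls and 2.44 times with endotoxin.

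The SMAD proteins that carry the signal were measured with the smallest errors of the list. SMAD2, a substrate of TGFBR1, was at 35.5 TPM in controls and 28.1 TPM with endotoxin per the authors' deposited table. Its log2 fold change was -0.19 ± 0.12 (SE), with a 95% interval of -0.44 to 0.05 and an adjusted p of 0.562 per the authors' deposited table. SMAD4, the partner shared with the BMP branch, was at 23.1 and 19.3 TPM, control first, per the authors' deposited table. The log2 fold change of SMAD4 was -0.12 ± 0.13 (SE), with a 95% interval of -0.37 to 0.12 and an adjusted p of 0.8 per the authors' deposited table. On the ratio of mean TPM plus 1 the same genes were at -0.33 and -0.25, more than a standard error lower, on a scale whose median over rows averaging 1 TPM or more is itself -0.10 against 0.01 on the scale of the authors' model.

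SMAD6, the inhibitory member, had the largest positive estimate. Its mean was 8.20 TPM in controls and 11.4 TPM with endotoxin per the authors' deposited table. The log2 fold change of SMAD6 was 0.58 ± 0.24 (SE), with a 95% interval of 0.10 to 1.05, an unadjusted p of 0.0171 and an adjusted p of 0.24 per the authors' deposited table. It therefore did not pass, and at that standard error a log2 fold change of 0.81 would have been needed. From the authors' deposited means, SMAD2 was at 4.33 times SMAD6 in controls and 2.46 times with endotoxin, given as levels with no test.

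**Figure D3:**
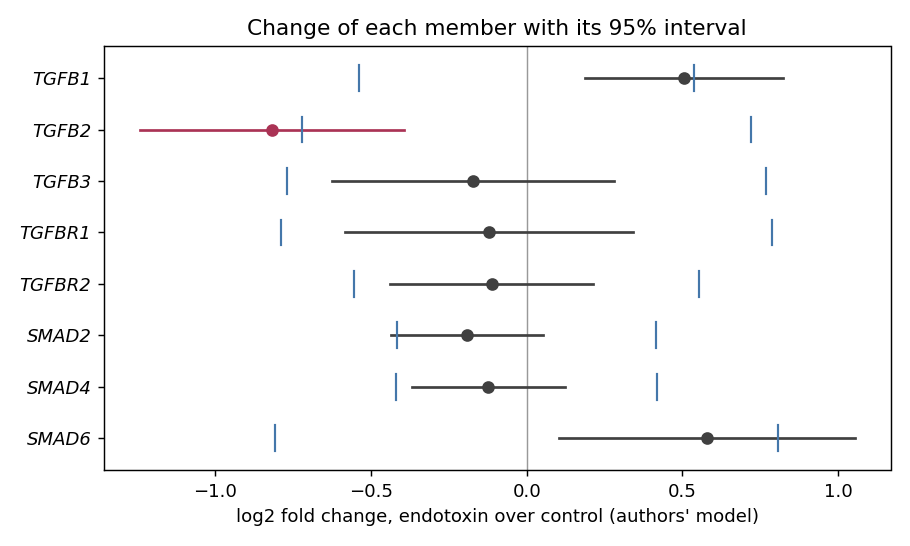
Log2 fold change of each member, endotoxin over control, on the scale of the authors' model, with horizontal bars for the 95% interval and blue ticks for the size that would have passed the adjusted threshold at that member's standard error. Only the point of TGFB2, drawn in red at -0.82, lies beyond its tick, while TGFB1 at 0.50 lies just inside its tick at 0.54.

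By level, the members ran in controls from SMAD2 through TGFB1, TGFBR2, SMAD4, TGFBR1, SMAD6 and TGFB3 down to TGFB2 per the authors' deposited table. With endotoxin TGFB1 stood above SMAD2 and SMAD6 above TGFBR1, and the other places were the same. The spread of levels between libraries is not given, so neighbours in this order cannot be told apart or shown to be equal. Likewise no gene with a similar pattern over libraries was sought.

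The wider pathway was read from 5 further lists, which together hold 108 distinct genes, 98 of them with a p per the authors' deposited table. Of these 98 genes 1 rose, none fell and 97 did not pass, a share of 1.02% beside 1.72% of all rows. Their median log2 fold change was -0.08 per the authors' deposited table. None of the 17 measured genes of ligand latency and activation passed, with a median of -0.14, per the authors' deposited table. The smallest p there belonged to FBN1, a microfibril protein that anchors latent complexes, at -0.41 ± 0.15 (SE; adjusted p = 0.166), and to LTBP2, a latent TGF-beta binding protein, at -0.67 ± 0.28 (SE; adjusted p = 0.226), per the authors' deposited table.

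None of the 13 measured co-receptors and other receptors passed either, with a median of -0.18 per the authors' deposited table. BMPR1A, a type I receptor for BMP ligands, was at 10.3 and 6.38 TPM, control first, and at -0.54 ± 0.18 (SE; adjusted p = 0.0954), per the authors' deposited table. ENG, the endothelial co-receptor endoglin, was at 0.44 ± 0.17 (SE; adjusted p = 0.201) per the authors' deposited table. In the BMP branch 0 of 11 measured genes passed, with a median of 0.01, per the authors' deposited table. BMP7, a ligand of that branch, was at 11.3 and 6.33 TPM, control first, and at -0.69 ± 0.22 (SE; adjusted p = 0.0621), and the BMP antagonist NOG was at 0.91 ± 0.41 (SE; adjusted p = 0.297), per the authors' deposited table.

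Among the SMAD cofactors, corepressors and ubiquitin ligases 0 of 23 passed, with a median of -0.05 per the authors' deposited table. SKIL, a corepressor of SMAD complexes that is itself induced by TGF-beta, was nearest, at 8.20 and 4.59 TPM, control first, and at -0.69 ± 0.22 (SE; adjusted p = 0.0643), per the authors' deposited table. USP11, a deubiquitinase reported to act on TGFBR1, was at -0.42 ± 0.15 (SE; adjusted p = 0.122) per the authors' deposited table.

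Of the 34 measured genes listed here as TGF-beta induced 1 rose, none fell and 33 did not pass, with a median of -0.08 per the authors' deposited table. The name of this list may not hold for every gene in it, such as MYC, ID1 and ID3. How its genes respond to TGF-beta in adrenal cells was not tested. Their median is therefore not a measure of TGF-beta signalling. The riser was TIMP1, an inhibitor of matrix metalloproteinases that is also induced by inflammatory cytokines, from 68.8 to 92.4 TPM per the authors' deposited table. Its log2 fold change was 0.56 ± 0.12 (SE; adjusted p = 0.001) per the authors' deposited table. Chosen after their values were seen, because they are known readouts of TGF-beta signalling, 3 further genes are given. JUNB was at 0.05 ± 0.40 (SE; adjusted p = 0.983) per the authors' deposited table. CTGF, listed as CCN2 and matched by its older symbol, was at -0.31 ± 0.68 (SE; adjusted p = 0.956), and CYR61, the older symbol of CCN1, at -0.97 ± 0.83 (SE; adjusted p = 0.721), per the authors' deposited table. The standard errors of these last 2 genes were over 3 times that of TGFB2, so their intervals are wide.

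**Figure D4:**
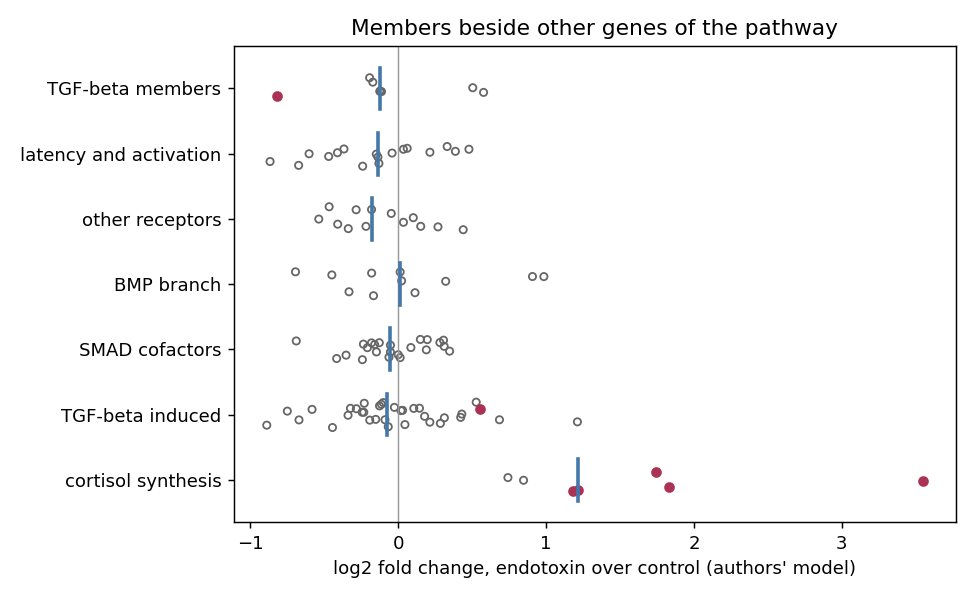
Log2 fold change, endotoxin over control, on the scale of the authors' model, for the 8 members, the 5 lists of the wider pathway and 7 genes of cortisol synthesis; filled red points passed an adjusted p of 0.05, open points did not, and blue lines are medians. In the pathway lists TGFB2 at -0.82 and TIMP1 at 0.56 are the filled points, while 5 of 7 cortisol synthesis genes are filled.

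The genes of cortisol synthesis, on which TGF-beta is known to act in culture, are given for comparison. Of 7 measured, 5 rose and none fell, with a median log2 fold change of 1.22 per the authors' deposited table. Of all rows with a p, 1.29% were called higher. Like the other lists, this one was chosen with earlier results of these data known. CYP17A1, the enzyme that directs steroids toward cortisol, went from 19.2 to 214 TPM per the authors' deposited table. Its log2 fold change, the highest of this list, was 3.55 ± 0.72 (SE; adjusted p = 0.000314). The other risers were CYP11A1 at 1.83, FDX1 at 1.75, HSD3B1 at 1.22 and STAR at 1.19, with standard errors between 0.29 and 0.39. Their adjusted p lay between 8.56e-05 and 0.00817. FDXR at 0.74 ± 0.26 (SE; adjusted p = 0.116) and CYP11B1 at 0.85 ± 0.38 (SE; adjusted p = 0.295) did not pass. A relation across libraries between these genes and TGFB2 could not be computed from group means.

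In whole glands, fewer cells of a type and less RNA per cell cannot be told apart, so marker lists of stromal cells are given beside TGFB2. All 7 measured fibroblast and capsule markers had negative estimates, with a median of -0.47, and none passed, while their summed level was 1642 TPM in controls and 1044 TPM with endotoxin per the authors' deposited table. The collagen gene COL1A2 was at -0.67 ± 0.38 (SE; adjusted p = 0.467), and COL1A1, the member of that list with the highest mean, at -0.58 ± 0.40 (SE; adjusted p = 0.59), per the authors' deposited table. The 7 pericyte and smooth muscle markers had 4 positive and 3 negative estimates, with a median of 0.04, and their summed level was 481 TPM in controls and 296 TPM with endotoxin per the authors' deposited table. Of these 1 fell, RGS5, from 221 to 69.9 TPM (adjusted p = 0.0198), beside 0.426% of all rows with a p called lower. ACTA2, the one with the highest mean, was at -0.15 ± 0.31 (SE; adjusted p = 0.948), per the authors' deposited table. These marker lists are not separate from the pathway lists. COL1A1, COL1A2, COL3A1 and ACTA2 are also in the list of TGF-beta induced genes, and the fibroblast marker DCN is in that of latency and activation. The part of stromal cells in the fall of TGFB2 was not tested.

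Beside TGFB1, markers of some blood cells rose. Their counts stand beside 1.29% of all rows with a p called higher, and these lists were chosen with earlier results known. Of 7 measured neutrophil markers 6 rose, and their summed level was 47.6 TPM in controls and 1919 TPM with endotoxin per the authors' deposited table. S100A9, a calprotectin subunit, led that list both by p and by level, from 26.1 to 736 TPM per the authors' deposited table. Of 8 macrophage markers 2 rose, with a summed level of 83.2 and 109 TPM, control first, per the authors' deposited table. MARCO, a scavenger receptor, was at 3.28 ± 0.45 (SE; adjusted p = 3e-10) and C1QB, a complement subunit, at 0.44 ± 0.36 (SE; adjusted p = 0.689) per the authors' deposited table. PPBP, the single measured platelet marker of 5 listed, was at 1.09 and 5.06 TPM, control first, with an adjusted p of 0.126 per the authors' deposited table. The part of blood cells in the TGFB1 estimate was not tested.

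Of 7 cortical markers 4 rose, beside 1.29% of all rows with a p called higher. CYP11A1, the side-chain cleavage enzyme, had the smallest p (adjusted p = 8.56e-05). The summed level of the 7 markers was 1428 and 3851 TPM, control first, per the authors' deposited table. Of the risers, STAR, CYP11A1 and FDX1 are also counted among the cortisol synthesis genes, and SCARB1 is not. The markers outside that list that did not pass were NR5A1 at 0.66 ± 0.24 (SE; adjusted p = 0.146), MC2R at 0.75 ± 0.30 (SE; adjusted p = 0.212) and NR0B1 at -0.09 ± 0.45 (SE; adjusted p = 0.844), per the authors' deposited table. None of 6 chromaffin markers passed, and PNMT, which makes adrenaline, was at 2.07 ± 0.73 (SE; adjusted p = 0.123) per the authors' deposited table. None of 7 endothelial markers passed, although all 7 estimates were positive, with VWF at 0.68 ± 0.28 (SE; adjusted p = 0.235) and PLVAP at 0.22 ± 0.21 (SE; adjusted p = 0.768) per the authors' deposited table. Of 4 erythroid markers 1 rose, the globin gene HBM (adjusted p = 0.00412), and AHSP, a chaperone of globin, had an adjusted p of 0.37 per the authors' deposited table. None of 7 lymphocyte markers passed, with CD79A at 0.87 ± 0.41 and NKG7 at 0.26 ± 0.36 (SE) per the authors' deposited table. None of 9 kidney, liver and fat markers passed, with the fat genes PLIN1 at -2.27 ± 1.29 and FABP4 at -0.42 ± 1.14 (SE) per the authors' deposited table.

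Pathway enrichment was taken from a second deposited table of the authors, in which TGFB2 was the single member to appear, as it must be when that table lists changed genes. It was among the changed genes of 17 of the 95 distinct categories. The category of TGF-beta signalling held 2 changed genes of 66, TGFB2 and INHBE, beside 109 changed genes of 4979 with an annotation. Its unadjusted p was 0.426 per the authors' deposited table, and it stood at place 63 of 95 by p. INHBE, an activin subunit chosen here because that category names it, went the other way, from 0.859 to 2.87 TPM (log2 fold change 1.81 ± 0.53 SE, adjusted p = 0.0404), per the authors' deposited table. The smallest p among the 17 categories, for cytokine and receptor interaction and for responses to infection, lay between 0.0286 and 0.0393 per the authors' deposited table, and after Benjamini-Hochberg adjustment over the 95 categories none of the 17 passed, the lowest being 0.263. Those 3 categories rest mainly on other genes, with 5 to 9 changed genes each.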

How the data were processed

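RNA of 10 adrenal libraries was sequenced from libraries made with a kit that keeps strand, per the labels' protocols. Of tools and builds, fastp 0.19.4, Salmon 0.9.1, DESeq2 and Oar_v3.1 appear in the submitters' processing notes, without roles. The authors deposited estimated counts and TPM per library, used here for depth and for the direction of groups A and B. They also deposited a table of differential expression, whose columns per the file headers are group means (read as TPM), log2 values, their standard error, a test score and p-values before and after adjustment. The log2 column of the authors' deposited table equals the log2 ratio of mean TPM plus 1 in all 19316 rows. Fold changes printed here were computed as the product of score and standard error, read as the log2 fold change of the authors' model. Benjamini-Hochberg adjustment of the authors' p-values over the rows with a p gave the authors' adjusted values for the 8 members. Intervals are that value ± 1.96 standard errors. The 80 rows whose p-value and adjusted p-value the authors set to 1 were treated as having no p. The size needed to pass was the score at the largest p called, 0.000857, times the standard error.

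No model was refitted, since libraries and symbols were not joined without a reference of cattle genes. The planned edgeR fit per library was therefore not run. Adjustment steps were tested on simulated data. The members and lists were chosen with earlier results of these data known. Every member was named, every pathway gene past the threshold or otherwise the 2 with the smallest p of a list, and of each marker list the gene with the smallest p and that with the highest mean. Scripts used Python 3.11.15, pandas 2.3.3 and scipy 1.17.1. Coordinates and sequences are not given, because the reference gene table is of another assembly, ARS-UI_Ramb_v3.0, and was used for names and gene order.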

Additional observations from a re-analysis of the deposited data

How the results depend on the processing

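TGFB2 was at -0.68 on the TPM ratio with a pseudocount of 1 and at -0.91 with 0.1. After subtracting the median of rows averaging 1 TPM or more, which was 0.01, it was at -0.83. Neither a pseudocount nor so small a median could have turned the direction of TGFB2, so these values describe size only. Its Benjamini-Hochberg adjusted p lay between 0.0131 and 0.0164 when the authors' p-values were adjusted again over all rows with a p, rows averaging 1 TPM or more or rows with a symbol. TGFB1 missed the threshold in each of these, with an adjusted p between 0.06 and 0.073. SMAD2 moved to -0.33 and -0.34, and SMAD4 to -0.25 and -0.26, on the TPM ratio with pseudocounts of 1 and 0.1; these ratios sit lower for the median row too. The other 86 values and counts of the members, pathway lists and cortisol synthesis genes kept their direction and their side of the threshold or moved by less than a standard error. Adjusting again reuses the same fold changes and p-values, so this tally is not a measure of stability. No member has 2 rows, so that choice had no alternative. No paired analysis was possible because the authors' deposited table holds no values per library. For the same reason the edgeR and DESeq2 fits per library, the fits without each library and the fit with sex were not run, and whether a single library decides the call of TGFB2 was not tested. TGFB2 has the lowest level of the members, and a member measured as TGFBR1 was would have needed a log2 fold change of 0.79 to pass.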

Other observations

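Gene order was examined as well, a choice made after the values of the members had been seen. In the annotation of the sheep assembly ARS-UI_Ramb_v3.0, SMAD6 and SMAD3 are neighbours with 0 protein-coding genes between them. SMAD2, SMAD7 and SMAD4 lie on the same chromosome, with 3 protein-coding genes between SMAD2 and SMAD7 and 14 between SMAD7 and SMAD4. The nearest protein-coding genes on either side of the 10 members, other than members themselves, number 18, and 16 of them were measured. None of the 16 passed an adjusted p of 0.05, beside 1.72% of all rows with a p, per the authors' deposited table. With 16 genes, the absence of a call does not set the neighbours apart from that background. On the sides of TGFB2, RRP15 was at 0.21 ± 0.16 (SE; adjusted p = 0.64) and LYPLAL1 at -0.07 ± 0.18 (SE; adjusted p = 0.964) per the authors' deposited table. On the far side of SMAD3 from SMAD6, AAGAB was at 0.40 ± 0.17 (SE; adjusted p = 0.267) per the authors' deposited table.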
